A study of Mus musculus with 12 samples.

Results

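A set of 10 genes of matrix breakdown was followed in the mouse colon: 9 matrix metalloproteinases (Mmp2, Mmp3, Mmp7, Mmp8, Mmp9, Mmp10, Mmp12, Mmp13 and Mmp14) and the inhibitor Timp1. They were chosen by name, as the probe sets that the platform annotation assigns to exactly 1 of these symbols, with the brightest probe set standing for a gene that has several. The names were chosen with earlier results of these data known. Counts of these genes set beside all genes may therefore partly follow from the choice. All 10 genes were found among 22180 named genes, and Mmp7 was the only one with over 1 probe set. The samples were 12 colon RNA preparations on 12 Affymetrix whole-transcript arrays, 3 for each of 4 genotypes. WT was IL10+/+ STING+/+, SKO was IL10+/+ STING-/-, IL10KO was IL10-/- STING+/+ and DKO was IL10-/- STING-/-. No treatment was named, and for age, strain, the design of the deleted alleles and the part of the colon nothing is given in the sources used here. IL-10 is an immune-restraining cytokine whose loss is a standard mouse model of colitis, and STING is an adaptor of the response to DNA in the cytosol. The design text names the colon of IL10KO and double-knockout mice as the comparison of interest.

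Matrix metalloproteinases are zinc-dependent proteases that cut collagens, proteoglycans, elastin and many cytokines and receptors. Most are secreted as inactive precursors, whose propeptide must be removed by plasmin or by another metalloproteinase, and most are transcribed little in resting tissue and strongly after inflammatory or growth signals. TIMP proteins bind the active site and block it. In the inflamed gut these enzymes are known from fibroblasts, infiltrating neutrophils and macrophages, and the epithelium at ulcer edges.

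Values are log2 signals, so a difference of 1 is a 2-fold change, and array medians lay between 4.80 and 5.02. Without detection calls in the table, a dim signal cannot be read as absence, and signals of different probe sets are not set against each other. The number of arrays limits the precision. Whether each sample is a separate animal is left unsaid by the labels, and the p-values therefore cover only the spread between these samples, which may be technical. In tissue RNA, a change in the number of cells of a type and a change in RNA per cell cannot be told apart. Sting1 read 4.13 to 4.40 in the 6 arrays of SKO and DKO and 6.87 to 8.09 in IL10KO, but 7.51, 6.40 and 4.56 in WT. The last, the library labelled WT replicate 3, lay near the knockout range. Il10 was dim in WT (3.68 ± 0.11, SD, n = 3) and read 4.98 ± 0.45 in IL10KO, and the sources used here do not say whether its probe set lies in the deleted part. Mean signals of 12 colonic epithelial markers were high in every array (10.80 to 11.68). Genes of stratified squamous epithelium had mean signals of 5.05 to 6.60 in IL10KO, 4.77 in DKO replicate 3 and 3.97 to 4.25 elsewhere. Pancreatic acinar enzymes averaged 9.11 and 11.84 in WT replicates 1 and 2, against 4.92 to 5.73 elsewhere.

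Most of the metalloproteinase genes were higher in IL10KO than in the other 3 genotypes, by several log2 units for Mmp13, Mmp10 and Mmp7 and by under 1 for Mmp2 and Mmp14, which were bright in every array. Against WT, 9 of the 10 genes rose in IL10KO (limma adjusted p under 0.05), where 3.12% of all genes rose, and Mmp12 did not pass. The median difference over the 10 was 1.96, beside 0.03 over all 22180 genes. For 9 of the 10, again all but Mmp12, every IL10KO array lay above every one of the other 9 arrays, a pattern found in 4.65% of all genes. Differences ran from 0.53 (Mmp12) to 3.88 (Mmp13), and Mmp13, Mmp10 and Mmp7 stood at ranks 8, 14 and 31 among all genes ordered by their rise.

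**Figure D1:**
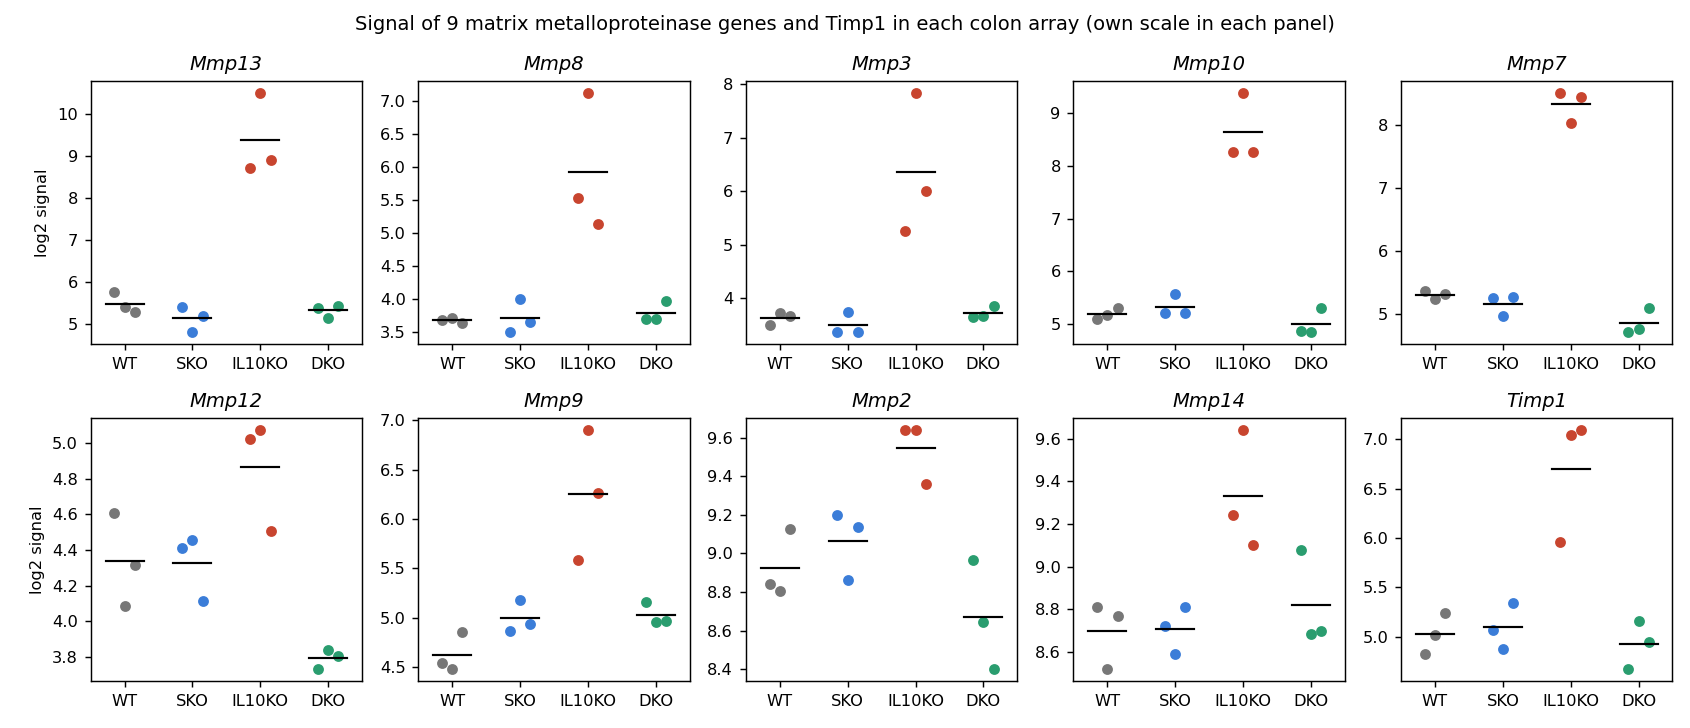
Log2 signal of each gene in each of the 12 arrays, by genotype (x axis); points are arrays, in replicate order from left to right, and black lines are means of 3. In 9 panels the 3 IL10KO points lie above all others, and in the panel of Mmp12 the lowest IL10KO point (4.51) lies below the highest WT point (4.61).

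The collagenases cut intact fibrillar collagen, and mice rely on Mmp13 and Mmp8 for it. Mmp13, collagenase 3 (probe set 17514482), read 5.75, 5.41 and 5.27 in WT, 5.40, 4.80 and 5.18 in SKO, 8.69, 10.49 and 8.89 in IL10KO and 5.38, 5.15 and 5.43 in DKO. Only IL10KO was high, and its lowest array stood 2.95 above the highest of the other 9. Against WT the rise was 3.88 ± 0.35 (SE; limma adjusted p = 4.82e-05), or 14.8-fold. IL10KO replicate 2 was the highest array by a wide margin, and without it the rise was 3.32. Mmp8, the neutrophil collagenase (probe set 17514553), read 3.68, 3.70 and 3.64 in WT, 3.49, 4.0 and 3.64 in SKO, 5.53, 7.12 and 5.13 in IL10KO and 3.70, 3.69 and 3.97 in DKO. Again IL10KO replicate 2 was highest and the groups did not overlap. Mmp8 rose by 2.25 ± 0.36 (limma adjusted p = 0.00274), and by 1.66 without that array.

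The stromelysins Mmp3 and Mmp10 cut proteoglycans, laminin and basement membrane proteins and can activate other pro-metalloproteinases. Mmp3, stromelysin 1 (probe set 17514515), read 3.49, 3.73 and 3.67 in WT, 3.37, 3.75 and 3.38 in SKO, 5.25, 7.84 and 6.02 in IL10KO and 3.65, 3.67 and 3.85 in DKO. It was the gene with the widest spread in IL10KO, 2.59 between its lowest and highest array. It rose by 2.74 ± 0.44 (limma adjusted p = 0.00278), by 2.0 without IL10KO replicate 2 and by 3.29 without IL10KO replicate 1. Its signal in the other 9 arrays, at most 3.85, lay below the lower quartile of genes in any array (3.90 to 4.26), where log2 differences can understate a change. Mmp10, stromelysin 2 (probe set 17514541), read 5.09, 5.17 and 5.32 in WT, 5.22, 5.58 and 5.21 in SKO, 8.26, 9.38 and 8.26 in IL10KO and 4.87, 4.85 and 5.31 in DKO. The gap between the lowest IL10KO array and the highest other array was 2.68. Mmp10 rose by 3.44 ± 0.25 (limma adjusted p = 1.06e-05), or 10.9-fold.

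Matrilysin, encoded by Mmp7, is an epithelial protease best known from Paneth cells, where it activates defensin precursors. Its bright probe set (17514592) read 5.36, 5.23 and 5.32 in WT, 5.26, 4.96 and 5.27 in SKO, 8.51, 8.03 and 8.44 in IL10KO and 4.71, 4.75 and 5.09 in DKO. Unlike for the collagenases, IL10KO replicate 2 was here the lowest of its genotype, and the 3 arrays spanned only 0.47. Mmp7 rose by 3.02 ± 0.16 (limma adjusted p = 1.99e-07), the smallest adjusted p of the 10 genes in this comparison. The second Mmp7 probe set (17523847) was dim in all arrays, from 2.67 to 3.33, with IL10KO at 2.80, 3.09 and 3.23 inside the range of the others. With both probe sets averaged, Mmp7 rose by 1.5 (limma adjusted p = 3.7e-05), in DKO against IL10KO it fell by 1.77, and both calls held. Both probe sets carry the same symbol and disagree, and the sources used here do not say which transcripts each one reads.

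Mmp12, macrophage elastase, cuts elastin and is made mainly by macrophages. It read 4.61, 4.09 and 4.31 in WT, 4.41, 4.45 and 4.11 in SKO, 5.02, 5.08 and 4.51 in IL10KO and 3.73, 3.84 and 3.80 in DKO (probe set 17514495). IL10KO and WT overlapped. DKO was the lowest genotype, with all its arrays below the other 9, a pattern not counted over all genes. The DKO signals lay below the lower quartile of genes in any array (3.90 to 4.26), where log2 differences can understate a change. The difference of 0.53 ± 0.18 between IL10KO and WT did not pass (limma adjusted p = 0.079). It was 0.71 and passed without IL10KO replicate 3 (limma adjusted p = 0.0335).

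Gelatinases degrade denatured collagen and basement membrane collagen; Mmp9 is stored in neutrophil granules, while Mmp2 is made by stromal cells. Mmp9, gelatinase B (probe set 17379606), read 4.54, 4.48 and 4.85 in WT, 4.86, 5.18 and 4.94 in SKO, 5.59, 6.91 and 6.27 in IL10KO and 5.16, 4.95 and 4.96 in DKO. It rose by 1.63 ± 0.25 (limma adjusted p = 0.0021), and its IL10KO arrays lay at least 0.41 above the rest. Mmp2, gelatinase A (probe set 17503825), read 8.84, 8.81 and 9.13 in WT, 9.20, 8.86 and 9.14 in SKO, 9.64, 9.64 and 9.36 in IL10KO and 8.97, 8.64 and 8.40 in DKO. The gap between IL10KO and the highest other array was 0.16. Mmp2 rose by 0.62 ± 0.17 (limma adjusted p = 0.0362), or 1.54-fold.

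Mmp14 is the membrane-bound metalloproteinase that activates pro-Mmp2 at the cell surface. It read 8.81, 8.52 and 8.77 in WT, 8.72, 8.59 and 8.81 in SKO, 9.24, 9.64 and 9.10 in IL10KO and 9.08, 8.69 and 8.70 in DKO (probe set 17300279). IL10KO arrays were the 3 highest, but by only 0.02 over DKO replicate 1. Mmp14 rose by 0.63 ± 0.17 (limma adjusted p = 0.0336). The calls of Mmp2 and Mmp14 were not stable: each ended without WT replicate 1, WT replicate 2, SKO replicate 1, IL10KO replicate 1 or IL10KO replicate 2. That of Mmp2 also ended without DKO replicate 2 and that of Mmp14 without the library labelled WT replicate 3, with limma adjusted p of up to 0.126 and 0.128.

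Timp1, the inducible inhibitor of most secreted metalloproteinases, went the same way as the proteases. It read 4.82, 5.02 and 5.24 in WT, 5.07, 4.88 and 5.34 in SKO, 5.96, 7.04 and 7.10 in IL10KO and 4.67, 5.16 and 4.94 in DKO (probe set 17533713). IL10KO replicate 1 was the lowest of its genotype and still 0.62 above every array of the other genotypes. Timp1 rose by 1.67 ± 0.26 (limma adjusted p = 0.00228), or 3.19-fold, by 2.04 without IL10KO replicate 1 and by 1.47 without IL10KO replicate 3. Over the 10 genes, IL10KO replicate 2 was the highest array for 7, replicate 1 for 2 (Mmp2 and Mmp7) and replicate 3 for Timp1 alone. When the library labelled WT replicate 3 was dropped, 8 of the 10 genes rose, Mmp13 by 3.78, Mmp10 by 3.5, Mmp7 by 3.03, Mmp3 by 2.76, Mmp8 by 2.24, Timp1 by 1.78, Mmp9 by 1.74 and Mmp2 by 0.72. With IL10KO replicate 1, which had the lowest squamous signal of its genotype (5.05), as the lone IL10KO array, assumed to vary like the other groups, 7 of them rose. Mmp13 rose by 3.22, Mmp7 by 3.20, Mmp10 by 3.07 and Mmp8 by 1.85, while the rises of Mmp3 (1.62), Mmp9 (0.97) and Timp1 (0.93) were over 1.5 times smaller than with all 3 arrays.

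Of these genes, 6 sit in 1 gene cluster. In the RefSeq gene table (GRCm38.p6), a run of 10 protein-coding genes on chromosome 9 holds nothing but metalloproteinases, in the order Mmp13, Mmp12, Mmp1b, Mmp3, Mmp1a, Mmp10, Mmp8, Mmp27, Mmp20 and Mmp7. All 10 were measured, and genes that rose were interspersed with genes that did not pass. Between IL10KO and WT, Mmp1b differed by 0.51 ± 0.18 (limma adjusted p = 0.0919), Mmp27 by 0.37 ± 0.17 (limma adjusted p = 0.19), Mmp20 by 0.08 ± 0.15 and Mmp1a by -0.05 ± 0.16. Mmp1a lies between Mmp3 and Mmp10, which rose by 2.74 and 3.44. However, Mmp1a read only 1.76 to 2.41 and Mmp1b 2.11 to 3.18 over all arrays. Both lay below the lower quartile of genes in any array (3.90 to 4.26), so a rise of these 2 genes may have been missed.

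**Figure D2:**
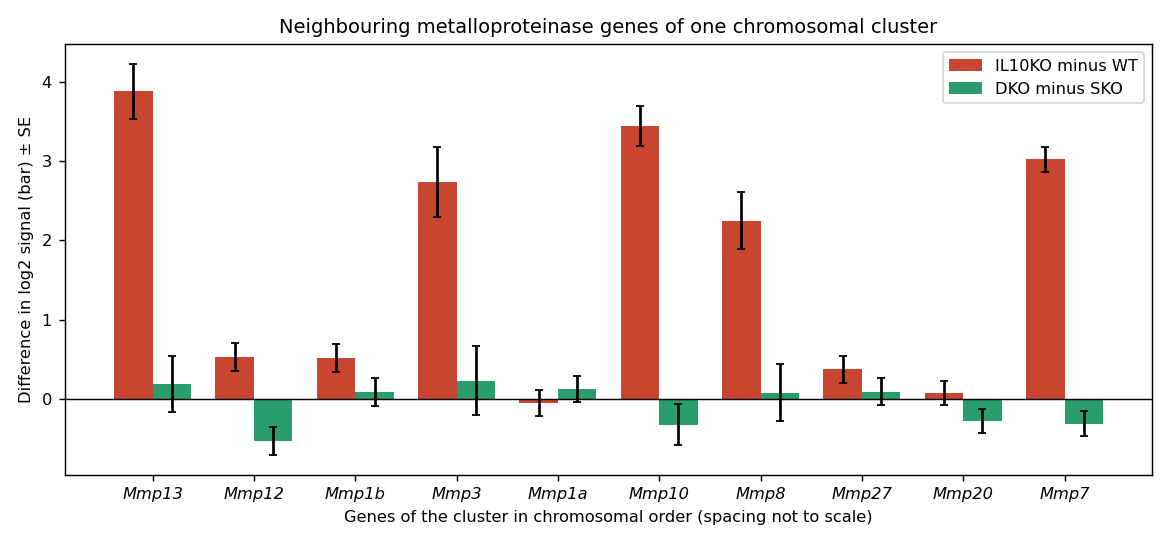
Differences in log2 signal (y axis; bars with SE) between IL10KO and WT and between DKO and SKO for the 10 genes of the cluster in chromosomal order (x axis). Mmp13, Mmp3, Mmp10, Mmp8 and Mmp7 have high IL10KO bars, from 2.25 to 3.88, the other 5 genes lie between -0.05 and 0.53, and the DKO against SKO bars run from -0.54 (Mmp12) to 0.23 (Mmp3).

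Promoters of metalloproteinase genes are known for a site of the AP-1 transcription factor (dimers of Fos and Jun proteins) just upstream of the start. RefSeq promoter sequences (GRCm38.p6) were at hand for 8 of the 10 genes, all but Mmp2 and Mmp9. The 250 bases before each start were searched for TGANTCA, which reads the same on both strands. It was found for Mmp3, Mmp7, Mmp10, Mmp12 and Mmp13, 5 of 8, and in 7.82% of 27025 genes with a sequence. All 5 lie in the chromosome 9 run, and none was found in this window for Mmp8, Mmp14 or Timp1. The sequences below run 5′ to 3′ on the plus strand to the last base before the start, with the AP-1 match in capitals. They are the 5 sequences with a match, from the 4 genes that rose most and from Mmp12, which did not pass.
Mmp13 (chr9:7272454-7272513): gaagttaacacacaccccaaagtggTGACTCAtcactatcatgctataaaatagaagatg
Mmp3 (chr9:7445751-7445821): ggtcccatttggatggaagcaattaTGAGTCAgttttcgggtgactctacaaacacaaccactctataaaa
Mmp10 (chr9:7502254-7502341): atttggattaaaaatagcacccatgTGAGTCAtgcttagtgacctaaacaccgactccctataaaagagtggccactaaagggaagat
Mmp7 (chr9:7692002-7692089): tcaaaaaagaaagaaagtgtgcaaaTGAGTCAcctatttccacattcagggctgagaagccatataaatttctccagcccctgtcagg
Mmp12 (chr9:7347305-7347373): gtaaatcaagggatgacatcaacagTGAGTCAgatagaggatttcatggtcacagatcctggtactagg

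The match began 35 bases before the start in Mmp13, 46 in Mmp3, 63 in both Mmp10 and Mmp7, and 44 before the second of 2 listed starts of Mmp12. Mmp7 also has 2 listed starts, and the match belongs to the first. Mmp13, Mmp3, Mmp10 and Mmp7 also hold TATAAA between the AP-1 match and the start. Anywhere in the 250 bases and on either strand, TATAAA was found for 4 of the 8 genes and for 14.3% of all genes. Its place between an AP-1 match and the start was not counted over all genes. AGGAAG or its complement CTTCCT, the core of ETS family sites of the PEA3 type, was found for 7 of the 8 genes, all but Mmp10, and for 32.3% of all genes. These matches describe letters in a window and say nothing on which factor bound there. Mmp12 has the AP-1 match, did not pass in IL10KO against WT and fell by 1.08 in DKO against IL10KO. Mmp8 rose without a match in its window. The part of these sites in the differences was not tested.

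Loss of STING on top of IL-10 went with low signals of the same family. In DKO against IL10KO, 9 of the 10 genes fell, where 2.45% of all genes fell, and Mmp14 did not pass; this comparison shares its IL10KO arrays with the one above. The median difference was -1.96, beside -0.04 over all genes. Mmp13 fell by 4.04 ± 0.35 (limma adjusted p = 5.58e-05), or 16.5-fold, Mmp10 fell by 3.62 ± 0.25 (limma adjusted p = 6.42e-06) and Mmp7 fell by 3.48 ± 0.16 (limma adjusted p = 4.21e-08). They stood at ranks 8, 9 and 12 of all genes ordered by their fall. Among the leukocyte enzymes, Mmp8 fell by 2.14 ± 0.36 (limma adjusted p = 0.00433) and Mmp9 by 1.23 ± 0.25 (limma adjusted p = 0.0123), and the call of Mmp9 ended without DKO replicate 2 (limma adjusted p = 0.0529) and with IL10KO replicate 1 as the lone IL10KO array (-0.57, limma adjusted p = 0.0824). Mmp3 fell by 2.64 ± 0.44 (limma adjusted p = 0.00396) and Timp1 fell by 1.77 ± 0.26 (limma adjusted p = 0.00197). Mmp12, which had not passed against WT, fell by 1.08 ± 0.18 (limma adjusted p = 0.00374). The stromal Mmp2 fell by 0.88 ± 0.17 (limma adjusted p = 0.00922), whereas Mmp14 differed by -0.51 ± 0.17 (limma adjusted p = 0.086).

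The change with loss of IL-10 can be set side by side in 2 pairs of genotypes that share no array. In DKO against SKO, where STING is absent, none of the 10 genes passed limma's test, and 0.0451% of all genes passed in either direction. An unadjusted p under 0.05 was found for 2 of the 10 (Mmp2 and Mmp12) and for 1059 of all 22180 genes. Mmp13 differed by 0.19, with a 95% confidence interval of -0.57 to 0.95, against 3.13 to 4.64 in IL10KO against WT. Mmp10 differed by -0.33 (-0.87 to 0.22) and Mmp7 by -0.31 (-0.65 to 0.03). Mmp3 differed by 0.23 (-0.72 to 1.17), so that a 2-fold rise is inside its interval. The fit takes 1 spread from all 4 genotypes, and the SD of Mmp3 was 1.33 in IL10KO, 0.22 in SKO and 0.11 in DKO. Its standard error here is therefore widened by the IL10KO arrays, which are not compared. In IL10KO against WT (SD 0.12 in WT) the same pooling narrows it. Mmp12 differed by -0.54 (-0.92 to -0.16) and Mmp2 by -0.40 (-0.76 to -0.04), both in the direction opposite to that in IL10KO against WT.

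**Figure D3:**
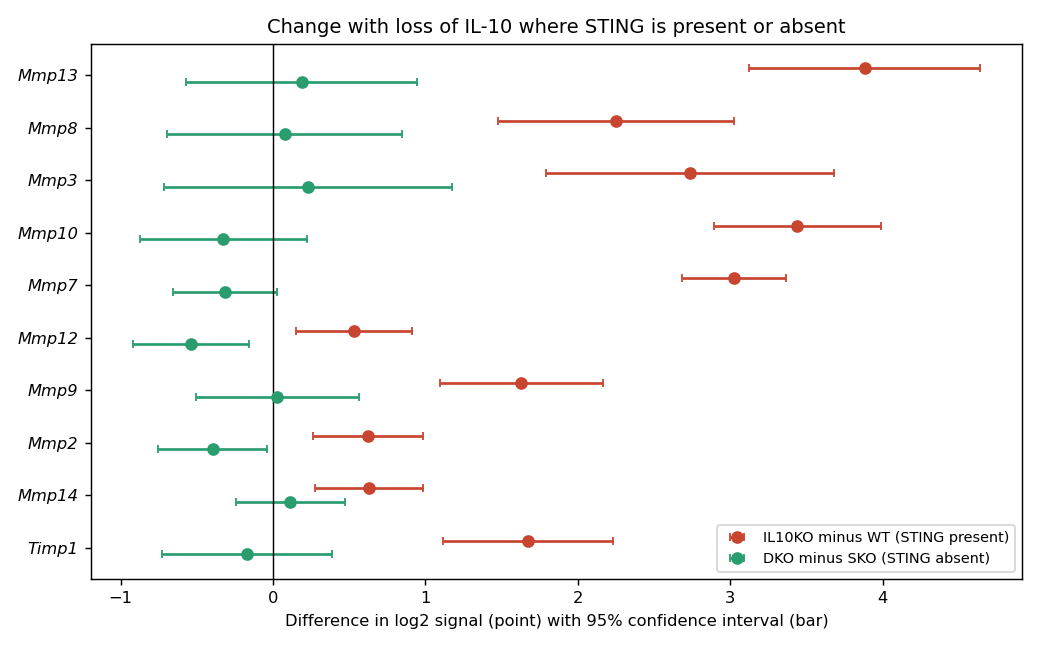
Difference in log2 signal (x axis; points with 95% confidence intervals of the moderated fit) for each gene between IL10KO and WT and between DKO and SKO. The intervals of Mmp14 (0.27 to 0.99 and -0.24 to 0.47) overlap and those of the other genes do not, a pattern not counted over all genes. The difference between the 2 effects passed limma's test for 4 of the 10 genes.

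The difference between these effects was tested as an interaction, (DKO minus SKO) minus (IL10KO minus WT). All 10 values were below 0, from -3.77 to -0.52, whereas 10127 of all 22180 genes had a value above 0. Of the 10 genes, 4 passed, where 0.365% of all genes passed as lower. They were Mmp7 (-3.34 ± 0.22, limma adjusted p = 6.63e-06), Mmp10 (-3.77 ± 0.36, limma adjusted p = 0.000309), Mmp13 (-3.69 ± 0.50, limma adjusted p = 0.0054) and Timp1 (-1.84 ± 0.37, limma adjusted p = 0.0402). Mmp7, Mmp10 and Mmp13 passed under every omission of 1 array, whereas Timp1 lost its call without any 1 of WT replicates 1 and 2, SKO replicates 1 to 3, IL10KO replicate 3 and DKO replicates 1 to 3 (limma adjusted p up to 0.118). Mmp3 (-2.51 ± 0.62, limma adjusted p = 0.094), Mmp8 (-2.18 ± 0.51, limma adjusted p = 0.0754), Mmp9 (-1.60 ± 0.35, limma adjusted p = 0.0636), Mmp12 (-1.07 ± 0.25), Mmp2 (-1.02 ± 0.24) and Mmp14 (-0.52 ± 0.23) did not pass. The count was 7 after dropping IL10KO replicate 1 or IL10KO replicate 2 and 5 after dropping IL10KO replicate 3, and the cause was not tested. Cell-type markers passed the same test. Of 12 neutrophil markers, 6 were lower, among them S100a8 (-4.15 ± 0.62), Lcn2 and Retnlg, and so was the macrophage marker Chil3 (-3.21 ± 0.49), 1 of 12. Of 12 colonic epithelial markers, 3 were higher, among them Clca1 (1.38 ± 0.19) and Aqp8 (1.51 ± 0.23), where 0.28% of all genes passed as higher. Of 7 Paneth markers, Lyz1 and Pla2g2a were lower and Ang4 higher. These 9 genes passed under all 12 omissions. The other called neutrophil markers passed under 2 to 10 of them, and the other called colonic epithelial marker under 2. The fibroblast marker Pdpn, 1 of 12, was also lower (-1.08 ± 0.22, limma adjusted p = 0.0409). Synpo2, 1 of 9 smooth muscle markers, and Clps, 1 of 8 pancreatic acinar enzymes, were higher. Pdpn passed under 3 of 12 omissions, Synpo2 under 7 and Clps under 6. The part of all these markers in the results for the metalloproteinase genes was not tested.

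With IL-10 present, loss of STING showed no called change in the family. In SKO against WT none of the 10 genes passed limma's test and none had an unadjusted p under 0.05, and 0% of all genes passed (454 had an unadjusted p under 0.05). Differences lay between -0.35 (Mmp13) and 0.37 (Mmp9), and the 95% confidence interval of Mmp7 ran from -0.48 to 0.20. In DKO against WT none of the 10 passed, where 0.0451% of all genes did. Mmp7 (-0.45 ± 0.16) and Mmp12 (-0.54 ± 0.18) had an unadjusted p under 0.05, as did 648 of all 22180 genes. The DKO arrays of Mmp7 and Mmp12 all lay below every WT array, a pattern not counted over all genes. When the library labelled WT replicate 3 was dropped, none of the 10 passed limma's test in either comparison, with Mmp13 at -0.45 and Mmp9 at 0.49 in SKO against WT and Mmp7 at -0.45 and Mmp12 at -0.56 in DKO against WT.

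Other members of the metalloproteinase system moved less. The 10 genes were chosen with earlier results of these data known, so this contrast may follow from the choice. Some of the other Mmp genes were also dim, such as Mmp1a (1.76 to 2.41) and Mmp1b (2.11 to 3.18), so a rise may have been missed. Of 13 further Mmp genes measured, none passed limma's test between IL10KO and WT, and the median difference was 0.29. An unadjusted p under 0.05 was found for 6 of the 13 and for 5808 of all 22180 genes. Nearest to passing was Mmp28, epilysin of epithelia, at 0.65 ± 0.19 (limma adjusted p = 0.051). Mmp25, a membrane-anchored enzyme of leukocytes, differed by 0.47 ± 0.15 and the membrane-anchored Mmp17 by -0.40 ± 0.14. None of 5 other inhibitors passed either, with 1 at an unadjusted p under 0.05 and a median of -0.20. Timp2 differed by -0.20 ± 0.12, Timp3 by -0.52 ± 0.25, Timp4 by -0.18 ± 0.33 and the membrane-anchored inhibitor Reck by -0.62 ± 0.18 (limma adjusted p = 0.0565). Of the inhibitors, 2 fell without IL10KO replicate 2 and 1 without DKO replicate 1, and of the Mmp genes 1 rose without DKO replicate 1, IL10KO replicate 2, IL10KO replicate 3 or the library labelled WT replicate 3. The broad protease inhibitor A2m differed by 0.23 ± 0.25, so 4 of the 5 values were opposite in sign to that of Timp1, none of them passing the test.

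Plasmin, formed from plasminogen by plasminogen activators, removes the propeptide of several of these enzymes. Of 11 measured genes of plasminogen activation and pro-metalloproteinase processing, 2 rose and none fell in IL10KO against WT (median 0.41). Plaur, the receptor that holds urokinase at the cell surface, rose by 1.78 ± 0.26 (limma adjusted p = 0.00135). The proprotein convertase gene Pcsk6 rose by 0.46 ± 0.13 (limma adjusted p = 0.0458), a call that held under 1 of 12 omissions, that of SKO replicate 2, and ended under each of the others. In DKO against IL10KO, Plaur fell by 1.76 ± 0.26 (limma adjusted p = 0.00189) and was the 1 of 11 that passed. Plaur passed in both comparisons under all 12 omissions.

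Cytokines, receptors and transcription factors that induce metalloproteinase genes were measured in 24 cases. In IL10KO against WT, 10 rose and 2 fell (median 0.32), where 5.01% of all genes fell, and in DKO against IL10KO, 9 fell and 1 rose (median -0.36). Il1b, a main inducer of stromelysins and collagenases, rose by 3.46 ± 0.44 (limma adjusted p = 0.000548) and in DKO fell by 3.49 ± 0.44 (limma adjusted p = 0.000683). Il11, an IL-6 family cytokine, rose by 1.96 ± 0.22 and fell by 1.82 ± 0.22. Il1a rose by 1.88 ± 0.23 and fell by 1.83 ± 0.23, and the transcription factor gene Cebpb rose by 1.06 ± 0.15 in IL10KO. Among the AP-1 subunits measured, Junb rose by 0.95 ± 0.15 (limma adjusted p = 0.00225). Jun fell by 0.62 ± 0.13 (limma adjusted p = 0.0124), a call that ended without the library labelled WT replicate 3. Fosl2, also an AP-1 subunit, fell too, a call that held under 2 of 12 omissions (limma adjusted p up to 0.153). Fos differed by 0.04 ± 0.15. Jun was the 1 inducer that rose in DKO against IL10KO (by 0.73 ± 0.13). Jun, Fosl2 and Fos were named after their values were seen. The number of inducers that fell in IL10KO was 3 without IL10KO replicate 2, 2 without SKO replicate 2, 0 when the library labelled WT replicate 3 was dropped, and 1 in each other omission. Il17a (0.32 ± 0.20) and Ifng (0.28 ± 0.20), likewise named after their values were seen, did not pass.

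Matrix proteins that metalloproteinases cut differed less than the enzymes. Of 17 measured, 4 rose and none fell in IL10KO against WT (median 0.30): the basement membrane genes Col4a1 (0.65 ± 0.15) and Lama1 (0.71 ± 0.18), the proteoglycan gene Vcan (0.62 ± 0.17) and Col1a1 (0.83 ± 0.24), a chain of fibrillar collagen. That count was 0 without IL10KO replicate 1, WT replicate 1 or the library labelled WT replicate 3, 1 without WT replicate 2, and 2 without IL10KO replicate 2, SKO replicate 1, SKO replicate 3 or DKO replicate 2. In DKO against IL10KO 3 of the 17 fell (median -0.40), Vcan (fell by 0.80 ± 0.17), Col4a1 and Lama1, and the count was 0 without DKO replicate 2, 1 without DKO replicate 1, DKO replicate 3 or IL10KO replicate 1, and 5 without IL10KO replicate 2. Of 15 ADAM and ADAMTS proteases, related enzymes that shed membrane proteins or cut proteoglycans, 3 rose and 2 fell in IL10KO against WT (median 0.11). Adam8, a leukocyte protease, rose by 1.2 ± 0.27 (limma adjusted p = 0.0181), and Adam15 fell by 0.54 ± 0.12 (limma adjusted p = 0.0155). The call of Adam8 ended without WT replicate 2 or the library labelled WT replicate 3, each of which left no called rise in the list, and that of Adam15 ended without WT replicate 1. The list had 1 called rise without WT replicate 1, IL10KO replicate 1, or DKO replicate 2.

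**Figure D4:**
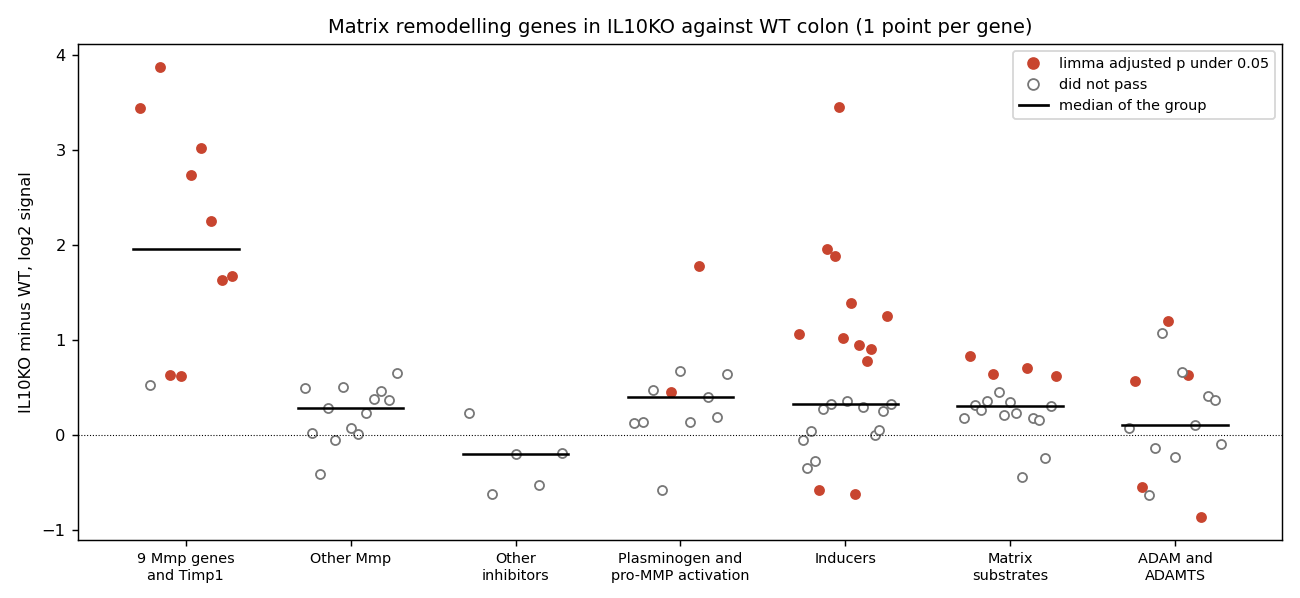
Difference between IL10KO and WT in log2 signal (y axis), 1 point per gene, for the 10 genes described here and 6 lists of the same system (x axis). Filled red points passed (limma adjusted p under 0.05), open points did not, and black lines are medians, which run from -0.20 for the other inhibitors to 1.96. The 10 genes and the lists were chosen with earlier results of these data known.

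Markers of the cells known to make these enzymes moved unevenly. Mean signals over 12 neutrophil markers were 6.02 to 7.23 in IL10KO, highest in replicate 2, and 4.47 to 4.55 in WT, 4.52 to 4.54 in SKO and 4.49 to 4.65 in DKO. Of the 12, 9 rose in IL10KO against WT (median 2.49) and 9 fell in DKO against IL10KO (median -2.27), S100a8 by 4.41 ± 0.44 and then -4.07 ± 0.44. Of the 10 genes, 7 were likewise highest in IL10KO replicate 2, among them the neutrophil products Mmp8 and Mmp9 and also Mmp3, Mmp10, Mmp12, Mmp13 and Mmp14. That array was also the highest for the macrophage (7.80), squamous (6.60) and inducer (7.26) lists. The same held for the endothelial (7.36), plasminogen activation (6.38) and ADAM and ADAMTS (6.87) lists. It was not the highest for the fibroblast, Paneth, colonic epithelial, smooth muscle, acinar, matrix substrate, further Mmp or other inhibitor lists. Among the IL10KO arrays alone it was the highest for smooth muscle (9.76) and the other inhibitors (7.07). Over 12 macrophage and monocyte markers the means were 7.15 to 7.80 in IL10KO and 6.41 to 6.84 in the other genotypes, and 5 rose in IL10KO against WT. Chil3 (3.12 ± 0.35) and Arg1 (2.38 ± 0.33) were among them, and the count was 3 without WT replicate 2 or IL10KO replicate 3. The 12 fibroblast markers had a median difference of -0.02, with means of 7.96 to 8.27 in IL10KO and 7.92 to 8.26 elsewhere. Of them, 3 rose, S100a4 (1.08 ± 0.22), Pdpn (0.77 ± 0.15) and Thy1 (0.63 ± 0.17), of which S100a4 is also expressed by leukocytes, and 1 rose without WT replicate 2. The share of these cell types in the differences of the metalloproteinase genes was not tested.

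Epithelial, Paneth and muscle markers moved with the family as follows. Of 7 Paneth cell markers, 3 rose and 1 fell in IL10KO against WT: Pla2g2a by 3.35 ± 0.27 and Lyz1 by 2.30 ± 0.22, whereas Ang4 fell by 4.82 ± 0.57. Their mean signal was 5.97 to 6.14 in IL10KO and 5.81 to 6.56 in the other genotypes, a mean in which Ang4 offsets the markers that rose, and their median difference from WT was 0.52. The part of Paneth cells in the rise of Mmp7 was not tested. Lyz1 has a close paralog in Lyz2, and the probe sets may share sequence. Colonic epithelial markers were lower in IL10KO, with means of 10.80 to 10.95 against 11.45 to 11.68, and 6 of 12 fell, beside 5.01% of all genes. Smooth muscle markers were lower too (9.50 to 9.76 against 10.32 to 10.61), and 7 of 9 fell. Colonic epithelial calls numbered 4 without WT replicate 1. Of 10 squamous markers, 8 rose, with 5 left after dropping either IL10KO replicate 3 or the library labelled WT replicate 3. DKO replicate 3, whose squamous mean was 4.77, was the highest of the 3 DKO arrays for Mmp13 (5.43), Mmp10 (5.31), Mmp7 (5.09), Mmp3 (3.85) and Mmp8 (3.97), and not for the other 5 genes. For Mmp13, Mmp10, Mmp7 and Mmp8 it lay inside the range of the WT and SKO arrays, and for Mmp3 it lay above it. The part of squamous tissue in the results was not tested.

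**Figure D5:**
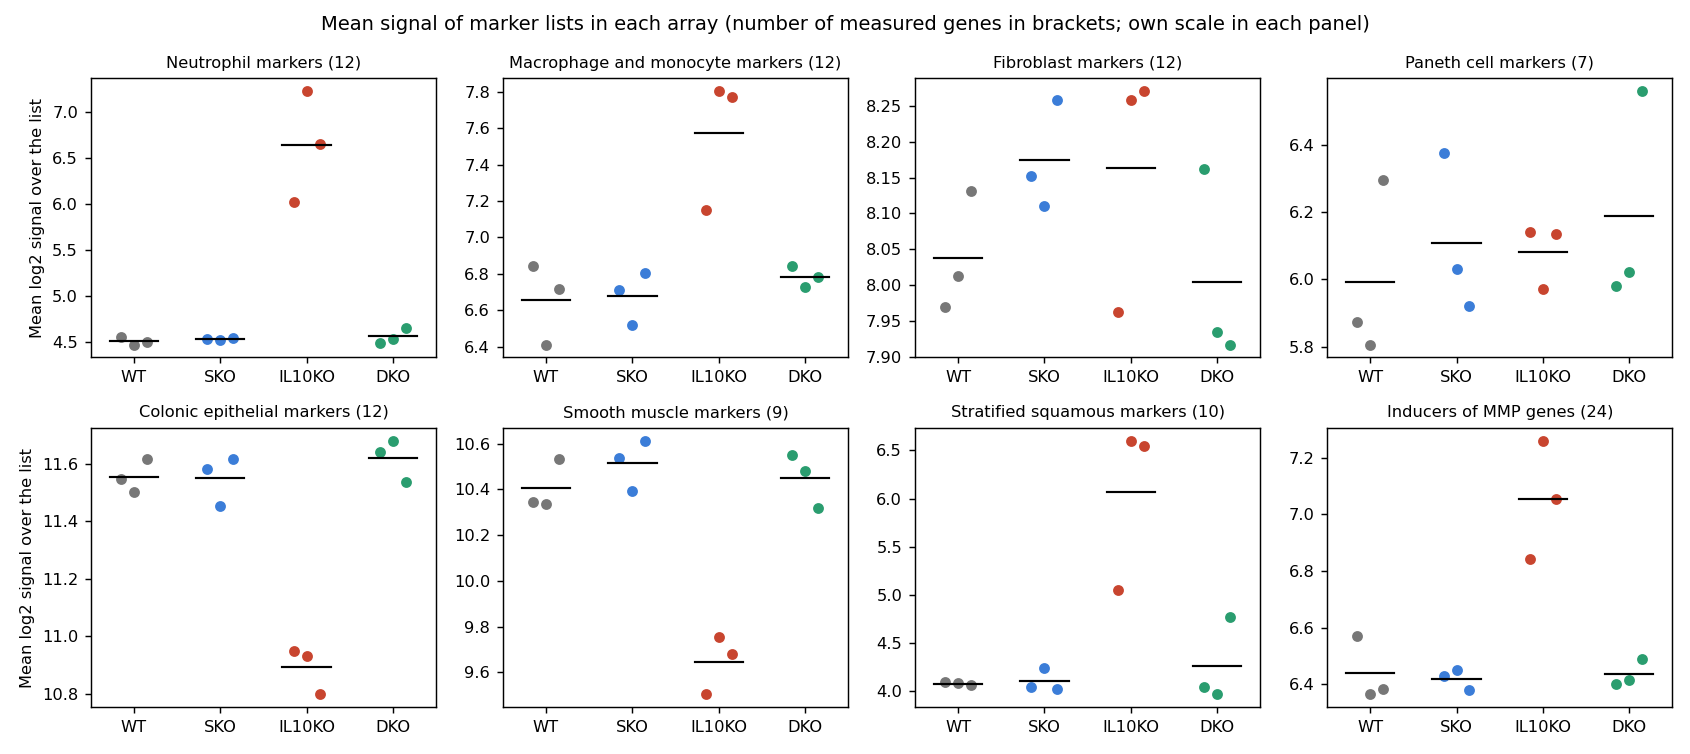
Mean log2 signal of 8 gene lists (y axis) in each array by genotype (x axis); points are arrays in replicate order and black lines are means of 3. Neutrophil, macrophage, squamous and inducer lists are highest in IL10KO, colonic epithelial and smooth muscle lists are lowest there, and fibroblast and Paneth lists overlap between genotypes.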

How the data were processed

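The deposited table of the authors gives log2 signals of 41345 probe sets in 12 columns, for which the submitters' processing notes name Affymetrix Expression Console (1.3.1.187). On background correction, summary, normalization and genome build nothing is given in the sources used here, and the log2 scale rests on the range of the values. Values were used as deposited.

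The platform annotation gave exactly 1 symbol for 23521 probe sets, several for 1814, and the rest are unnamed here. The brightest probe set of each symbol gave 22180 genes. All 12 arrays entered 1 fit (limma 3.58.1, R 4.3.3) of a mean for each genotype, with 8 residual and 5.56 prior degrees of freedom, and 6 comparisons. A gene was called at a Benjamini-Hochberg adjusted p under 0.05 over all genes, 2-sided. Replicate numbers follow sample order and pair nothing. On simulated data for IL10KO against WT over 22180 genes, limma called 71% of 100 genes given a log2 shift of 1 and 99% of 100 given a shift of 2, with 10 calls among 21980 unchanged genes. The simulation gave each gene the same normal spread in all 4 genotypes. In the data, genes such as Mmp3 spread more in IL10KO (SD 1.33, against 0.12 in WT), and for them these rates need not hold.

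The 10 genes and the lists were chosen with earlier results of these data known. Named are the 10 genes, the 4 called genes of smallest p per pathway list in IL10KO against WT and DKO against IL10KO (2 in other comparisons), any Mmp gene or inhibitor, and up to 3 genes per marker list. Promoter sequences are from RefSeq (GRCm38.p6). The fit was repeated with array weights, with a robust trended prior, with a 2-fold threshold, on quantile-normalized or median-centred arrays, without the dimmest 33.3% of genes, with probe sets averaged per gene, on the compared genotypes alone, without 3 libraries together (SKO replicate 2, IL10KO replicate 1 and the library labelled WT replicate 3) and without each array in turn. IL10KO replicate 1 as the lone IL10KO array was added after seeing the data.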

Additional observations from a re-analysis of the deposited data

Results flagged for a closer look

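The change with loss of IL-10 differed between the STING genotypes for 4 of the 10 genes and for 5 genes of the related pathway lists (cell-type markers that passed are given with the report's interaction test), by limma's test of (DKO minus SKO) minus (IL10KO minus WT). The values were -3.34 for Mmp7, -3.77 for Mmp10, -3.69 for Mmp13 and -1.84 for Timp1. With both Mmp7 probe sets averaged, the value of Mmp7 was -1.66 (limma adjusted p = 0.00164). For the inducers they were -1.88 for Il11 (limma adjusted p = 0.0173), -1.22 for Junb (limma adjusted p = 0.0184), -1.80 for Il1a (limma adjusted p = 0.0268) and -1.07 for Cebpb (limma adjusted p = 0.0367). The urokinase receptor gene Plaur had -1.73 (limma adjusted p = 0.0488). Leaving out 1 array at a time, Il11 passed in 9 of 12 cases, Junb in 6, Il1a in 4, Cebpb in 4 and Plaur in 2, with limma adjusted p up to 0.0566, 0.067, 0.0885, 0.115 and 0.136. Groups of 3 arrays are too small to be searched for outlying samples.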

How the results depend on the processing

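No paired analysis was possible because the labels give no shared replicate numbers. Over 1262 values of the 10 genes under the alternatives, 1178 kept direction and side of the threshold, 38 lost a call, 26 gained one and 20 turned sign, none of them called in either fit. In IL10KO against WT, 7 to 9 genes were called under the other settings and 7 to 10 with 1 array left out, and in DKO against IL10KO 6 to 10 and 8 to 9. The lowest count came from leaving out the dimmest genes, which drops Mmp3, Mmp8 and Mmp12. Array weights, which gave SKO replicate 1 a weight of 13.6 and whose estimation stopped before it converged, called 3 genes in DKO against SKO and 9 for the difference of effects, and single omissions gave 3 to 7 for the latter. Sign turned under array weights for Mmp12 (0.057) and Mmp8 (-0.16) in SKO against WT and Mmp13 (-0.11) in DKO against SKO. Without 3 libraries together it turned for Mmp8 in SKO against WT (-0.12) and Timp1 in DKO against WT (0.0061). Single omissions spanned 0 in SKO against WT for Mmp12 (-0.13 to 0.13), Mmp14 (-0.080 to 0.068), Mmp8 (-0.11 to 0.15) and Timp1 (-0.056 to 0.17). They did so in DKO against SKO for Mmp14 (-0.016 to 0.18), Mmp8 (-0.033 to 0.22) and Mmp9 (-0.037 to 0.12), and in DKO against WT for Mmp14 (-0.0069 to 0.19) and Timp1 (-0.22 to 0.025). The cause was not tested.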
